A study of Homo sapiens with 18 samples.

Results

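HOX genes encode homeodomain transcription factors and lie in clusters named A, B, C and D. They were taken here as the rows whose symbol is HOX, a cluster letter and a number, which gave 39 of the 40266 gene symbols measured. Of these, 11 belonged to the HOXA, 10 to the HOXB, 9 to the HOXC and 9 to the HOXD cluster. Their RNA was compared in 6 groups of human pancreatic ductal adenocarcinoma (PDAC) cells with 3 libraries each. Panc1, from a primary tumor, served the study as its mesenchymal-like line, and Panc89, from a lymph node metastasis, as its epithelial line. Each was sequenced as untreated parental cells and as a Holoclone and a Paraclone line grown from single cells, of which Holoclone colonies stand for cancer stem cells and Paraclone colonies for non-stem cells. The 3 replicates of a group were 3 passages. Each Holoclone or Paraclone line was 1 clone, so a difference between them is a difference between 1 clone and 1 clone, and p-values measure the spread between passages.

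During development HOX genes are switched on in the order in which they lie along their cluster, so that low-numbered members mark anterior and high-numbered members posterior positions of the body axis. Genes with the same number in different clusters, called paralogs, encode closely related proteins that bind DNA together with PBX and MEIS cofactors. Adult cells keep part of this positional pattern, which Polycomb proteins hold silent and Trithorax proteins hold active, and retinoic acid and CDX factors are known inducers of the clusters.

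Levels are in TPM, a transcript's share of the RNA of a library corrected for transcript length, and can be compared between genes. Group differences are on the log2(TPM + 1) scale and were tested in limma over 16093 genes that reached 1 TPM in 3 or more libraries. A gene is called when its adjusted p is under 0.05. On this scale the change of a gene near or under 1 TPM is understated, and sequencing depth is unknown. Correlations between replicates ran from 0.954 to 0.992 across genes, which are not independent replicates. Of the marker lists, *CDH1*, the epithelial cadherin, was at 73.3 to 106.7 TPM in Panc89 and at 0.671 to 3.51 in Panc1, while *VIM*, the mesenchymal filament, was at 2021 to 5044 TPM in Panc1 and under 0.5 in Panc89. Of 6 epithelial markers 4 were called higher and 1 lower in parental Panc89, 4 and 2 in Holoclone and 3 and 0 in Paraclone cells. Of 5 mesenchymal markers these counts were 1 and 3, 0 and 4, and 2 and 3. The shares of all genes are given with the line comparisons below. Between parental lines *KRT8* (729 to 781 TPM in Panc89, 1043 to 2029 in Panc1) and *FN1* (2.745 to 4.325, 0.044 to 0.338) went the other way. The summed level of 4 endothelial markers was 55.2 to 69.1 TPM in parental Panc89, carried by *PECAM1*, against 1.01 to 2.17 in its Holoclone and 2.95 to 8.90 in its Paraclone cells. Of 5 leukocyte markers *CD68* alone, and of 5 fibroblast markers *COL1A1* alone, reached the level needed for testing, and the leukocyte markers *PTPRC* and *CD3E* stayed under 1 TPM in every library. The leukocyte marker *CD79A* reached 1.16 TPM in Panc89 Paraclone replicate 1, and the fibroblast marker *LUM* 1.15 TPM in Panc89 parental replicate 1.

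The filter kept 30 of the 39 HOX genes. *HOXA4*, *HOXA7*, *HOXA10*, *HOXB1*, *HOXC5*, *HOXD1*, *HOXD8*, *HOXD12* and *HOXD13* did not pass it and were not tested. *HOXC5*, with a third-highest value of 0.870 TPM, lay just outside and *HOXA13*, with 1.05, just inside. Of the 30, 15 passed through libraries of both lines, 12 through Panc1 libraries alone and 3, *HOXA9*, *HOXD9* and *HOXD11*, through Panc89 libraries alone. A gene that passed through 1 line alone is low in the other by construction, so the counts of HOX genes called between the lines are a description.

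Panc1 cells held far more HOX RNA than Panc89 cells, and the difference lay in the HOXB and HOXC clusters. All 39 genes together summed to 1131 ± 96.7 TPM (SD, n = 3) in parental Panc1 cells, against 87.4 ± 5.77 in those of Panc89. In such bulk libraries fewer expressing cells and less RNA per cell cannot be told apart. The HOXB cluster made up 60.7% of the sum in parental Panc1 and 9.83% in parental Panc89, and the HOXC cluster 34.2% and 23.8%. In parental Panc89 the HOXA cluster held 53.6% of the sum, and 94.0% of that was *HOXA3*. The HOXD cluster held 0.731% in parental Panc1 cells and 12.7% in those of Panc89. Panc1 Holoclone cells summed to 1132 ± 54.6 and Panc1 Paraclone cells to 859 ± 101 TPM, and Panc89 Holoclone and Paraclone cells to 105.6 ± 5.39 and 145 ± 11.4 TPM. At 1 TPM or more in all 3 libraries were 26, 23 and 19 HOX genes in parental, Holoclone and Paraclone Panc1 and 11, 10 and 13 in the same Panc89 groups.

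**Figure D1:**
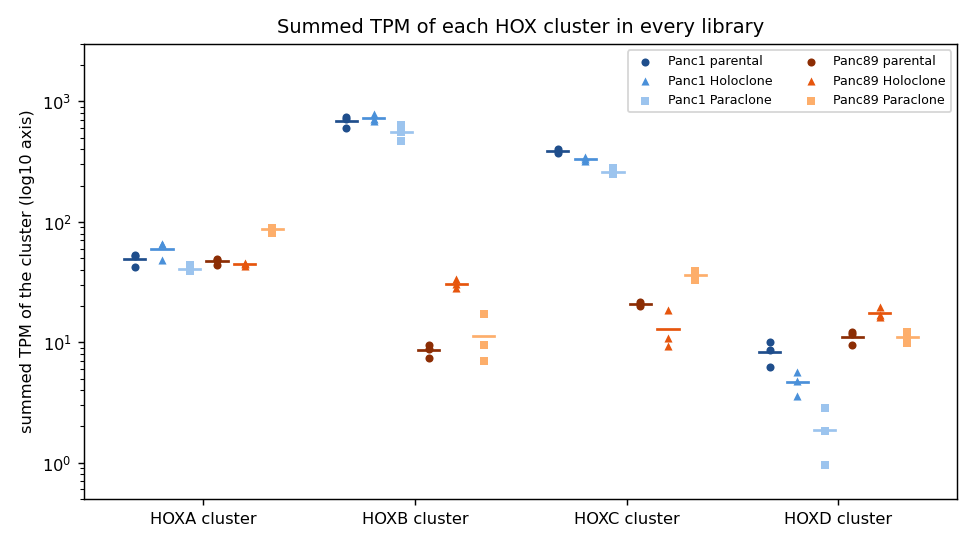
Summed TPM of the genes of each HOX cluster (log10 axis) in every library, coloured by group, with a bar at the mean of each group of 3. HOXB sums of 473 to 786 TPM in Panc1 stand apart from 6.97 to 33.3 in Panc89, whereas HOXA sums of both lines overlap and HOXD sums are higher in Panc89 than in the Panc1 clones.

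To ask which HOX genes separate the lines, Panc89 was compared with Panc1 within parental, Holoclone and Paraclone cells, 3 comparisons that share no library. In parental cells all 30 tested HOX genes were called, 5 higher and 25 lower in Panc89, where 66.0% of all genes tested were called, 27.5% higher and 38.5% lower. By more than 1 on the log2 scale 26 differed, against 37.4% of all genes. In Holoclone cells 30 were called, again 5 higher and 25 lower, against 65.8% of all genes, 29.3% higher and 36.4% lower, and 26 differed by more than 1, against 37.3%. In Paraclone cells 27 were called, 5 higher and 22 lower, against 60.7% of all genes, 30.2% higher and 30.4% lower, and 22 differed by more than 1, against 32.8%. For the tested HOX genes the median difference was −2.88 in parental, −2.93 in Holoclone and −1.83 in Paraclone cells, beside −0.18, −0.11 and −0.0029 over all genes. *HOXA3*, *HOXA9*, *HOXD9*, *HOXD10* and *HOXD11* were higher in Panc89 in all 3 comparisons, 22 others were lower in all 3, and *HOXA2*, *HOXA13* and *HOXC12* were lower in parental and Holoclone cells but not called in Paraclone cells. The split of higher and lower genes was the same under upper quartile and median-of-ratios scaling, although the second moved the median of all genes between the parental lines from −0.18 to 0.02.

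**Figure D2:**
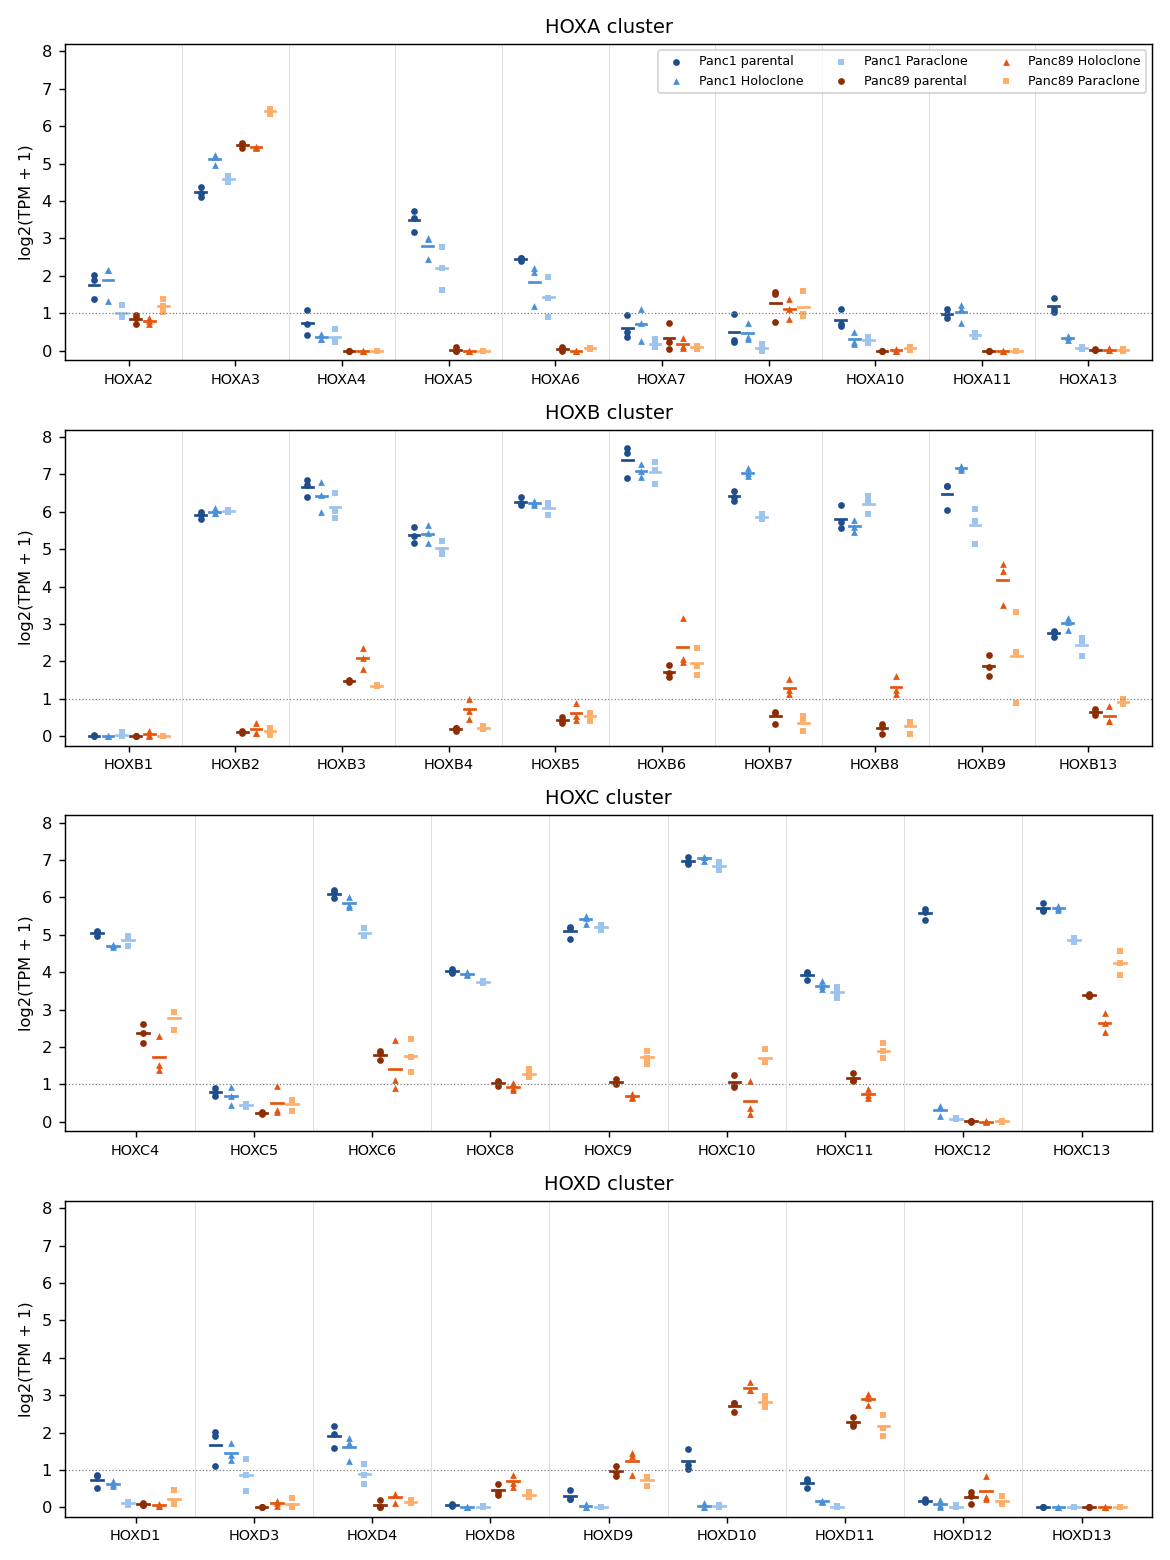
Level of the HOX genes as log2(TPM + 1), 1 panel per cluster with members in order of number, 1 point per library and a bar at the group mean (n = 3) and the dotted line marks 1 TPM. Blue Panc1 points lie above orange Panc89 points for HOXB2 to HOXB9 and for HOXC4, HOXC6, HOXC8 to HOXC11 and HOXC13, and below them for HOXA3, HOXD10 and HOXD11. For HOXC13 the lowest Panc1 library, at 27.0 TPM, lies close above the highest Panc89 library, at 22.7 TPM.

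The HOXA cluster lies on chromosome 7 (GENCODE 44, GRCh38, chr7:27092993-27200091, minus strand), and 8 of its 11 genes were tested. Between the lines 2 of these were higher and 6 lower in parental and in Holoclone Panc89 cells, and 2 were higher and 4 lower in Paraclone cells. Among them *HOXA5*, *HOXA6*, *HOXA11* and *HOXA13* passed the filter through Panc1 libraries alone, so their directions between the lines are a description. *HOXA3* had the highest mean TPM of the cluster over all libraries. *HOXA3* was at 16.4, 19.7 and 17.7 TPM in parental Panc1, at 36.5, 30.2 and 35.4 in Panc1 Holoclone and at 24.3, 22.8 and 21.6 in Panc1 Paraclone cells. *HOXA3* in Panc89 stood at 45.7, 41.8 and 44.7 TPM in parental, at 42.2, 42.8 and 41.8 in Holoclone and at 87.2, 84.2 and 79.0 in Paraclone cells. *HOXA3*, which takes part in forming the thymus and parathyroid glands, was thus the 1 strongly expressed HOX gene that was higher in Panc89. Its log2 fold changes between the lines were 1.25 (SE 0.098, adjusted p = 1.65e-08) in parental, 0.31 (SE 0.098, adjusted p = 0.0113) in Holoclone and 1.82 (SE 0.098, adjusted p = 1.91e-10) in Paraclone cells by limma. Without replicate 2 of Panc1 Holoclone the Holoclone value was 0.23 with an adjusted p of 0.0624. Of the exon bases of *HOXA3*, 17.3% are overlapped on the opposite strand, by *HOXA-AS2* and *HOXA-AS3*, and whether the authors' quantification used strand is not given in the sources used here.

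*HOXA5* was at 12.4, 10.8 and 8.07 TPM in parental Panc1, at 6.85, 4.42 and 7.01 in Panc1 Holoclone and at 2.08, 3.65 and 5.86 in Panc1 Paraclone cells. *HOXA5*, known for its part in lung and axial skeleton development, was listed at 0 in all Panc89 libraries but 1, which held 0.063 TPM. Within Panc1 its parental libraries lay above its clones.

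The remaining HOXA genes were low. *HOXA2* ranged from 0.875 to 3.47 TPM in Panc1 and from 0.645 to 1.59 in Panc89, and *HOXA6* from 0.868 to 4.56 and from 0 to 0.060. *HOXA9*, known from leukemia as a partner of *MEIS1*, ranged from 0 to 0.971 TPM in Panc1 and from 0.708 to 1.99 in Panc89, with log2 fold changes of 0.78, 0.64 and 1.10. *HOXA9* passed the filter through Panc89 libraries alone, so its direction and calls between the lines are a description. Its parental libraries overlapped between the lines and its Holoclone libraries did not. The parental call ended without Panc1 parental replicate 2 or 3 or Panc89 parental replicate 1 or 3 (limma adjusted p 0.0509 to 0.0610), and the Holoclone call without Panc1 Holoclone replicate 2 or 3 or Panc89 Holoclone replicate 1 or 2 (0.0719 to 0.122). *HOXA10-AS*, which overlaps 13.9% of the exon bases of *HOXA9* on the opposite strand, was also higher in Panc89. The exon bases of *HOXA6* and *HOXA11* are likewise overlapped, by 39.3% and 27.2%. *HOXA11*, a limb and uterus gene, was at 0.298 to 1.34 TPM in Panc1 and listed at 0 in every Panc89 library. *HOXA13*, the most posterior member, was at 1.05, 1.66 and 1.15 TPM in parental Panc1 and at 0.3 TPM or less elsewhere. Its difference between the Holoclone lines, −0.32, was not called without Panc1 Holoclone replicate 1 or 3 or Panc89 Holoclone replicate 2 (limma adjusted p 0.0502 to 0.0505). Of the untested genes, *HOXA4* reached 1.14, *HOXA7* 1.15 and *HOXA10* 1.15 TPM in their highest library, all in Panc1, and *HOXA4* was listed at 0 in every Panc89 library.

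The HOXB cluster lies on chromosome 17 (chr17:48528526-48728750, minus strand), and 9 of its 10 genes were tested. All 9 were lower in Panc89 in each of the 3 comparisons, with a median log2 fold change of −5.61 in parental, −4.70 in Holoclone and −5.12 in Paraclone cells. For each of the 9, every Panc1 library was above every Panc89 library. Of these, *HOXB2*, *HOXB4*, *HOXB5* and *HOXB13* passed the filter through Panc1 libraries alone, so their directions are a description. *HOXB6* was at 189.6, 210.0 and 118 TPM in parental Panc1, at 154, 135 and 120.2 in Panc1 Holoclone and at 107, 139 and 161 in Panc1 Paraclone cells. *HOXB6* in Panc89 stood at 2.23, 2.00 and 2.75 TPM in parental, at 7.93, 3.18 and 2.93 in Holoclone and at 4.12, 2.67 and 2.10 in Paraclone cells. *HOXB6*, at the highest mean level of the cluster, differed by −5.67, −4.70 and −5.12 between the lines, and it shares 16.6% of its exon bases with *HOXB3*, so the division of reads between the pair is uncertain. *HOXB9* was at 102, 65.0 and 103 TPM in parental Panc1, at 144, 148 and 137 in Panc1 Holoclone and at 34.2, 52.8 and 66.1 in Panc1 Paraclone cells. *HOXB9* in Panc89 stood at 3.50, 2.05 and 2.61 TPM in parental, at 10.4, 20.2 and 23.1 in Holoclone and at 9.03, 0.849 and 3.75 in Paraclone cells. *HOXB9*, which shapes the thoracic skeleton, had the highest group mean of the HOXB genes in Panc1 Holoclone cells and in all 3 Panc89 groups. In Panc89 Paraclone replicate 2 it was at 0.849 TPM, under *HOXB6* at 2.67. *HOXB6* was also above it in Panc1 Holoclone replicate 1 and Panc89 parental replicate 3. Between the lines *HOXB9* differed by −4.60, −3.00 and −3.50.

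*HOXB7* was at 93.0, 83.6 and 76.8 TPM in parental Panc1, at 129.9, 123 and 143 in Panc1 Holoclone and at 60.1, 56.3 and 55.5 in Panc1 Paraclone cells. *HOXB7* in Panc89 stood at 0.580, 0.539 and 0.256 TPM in parental, at 1.89, 1.18 and 1.36 in Holoclone and at 0.448, 0.317 and 0.111 in Paraclone cells. *HOXB7*, known for its activity in several carcinomas, was in each line highest in the Holoclone libraries, with no overlap with the other groups. *HOXB8* was at 52.3, 71.1 and 46.1 TPM in parental Panc1, at 54.5, 43.1 and 47.1 in Panc1 Holoclone and at 60.9, 76.5 and 84.1 in Panc1 Paraclone cells. *HOXB8* in Panc89 stood at 0.184, 0.047 and 0.262 TPM in parental, at 1.18, 1.35 and 2.05 in Holoclone and at 0.300, 0.047 and 0.266 in Paraclone cells. *HOXB8*, a gene of myeloid progenitors and the thoracic axis, was likewise highest in Panc89 Holoclone cells, while in Panc1 its Holoclone libraries overlapped with the parental ones. Between the lines *HOXB7* differed by −5.88, −5.75 and −5.50 and *HOXB8* by −5.61, −4.29 and −5.95, with limma adjusted p-values of at most 1.04e-11. *HOXB2* ranged from 55.2 to 67.3 TPM in Panc1 and from 0.017 to 0.281 in Panc89. *HOXB3* ranged from 56.3 to 116 and from 1.52 to 4.09, *HOXB4* from 28.5 to 49.4 and from 0.103 to 0.994, and *HOXB5* from 59.2 to 82.8 and from 0.289 to 0.846. *HOXB13*, a prostate gene that lies apart from the rest of its cluster, ranged from 3.39 to 7.92 TPM in Panc1 and from 0.323 to 0.987 in Panc89. *HOXB1*, the most anterior member, reached at most 0.099 TPM.

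The HOXC cluster lies on chromosome 12 (chr12:53938831-54056030, plus strand), and 8 of its 9 genes were tested. All 8 were lower in parental and in Holoclone Panc89 cells and 7 in Paraclone Panc89 cells, with median log2 fold changes of −3.51, −3.05 and −2.27. For these 7, every Panc1 library was above every Panc89 library. The other tested gene, *HOXC12*, passed the filter through Panc1 libraries alone, so its direction is a description. *HOXC10* was at 117, 135 and 123 TPM in parental Panc1, at 134, 136 and 125 in Panc1 Holoclone and at 105.8, 113 and 124 in Panc1 Paraclone cells. *HOXC10* in Panc89 stood at 0.989, 1.38 and 0.903 TPM in parental, at 1.12, 0.283 and 0.157 in Holoclone and at 2.02, 2.04 and 2.87 in Paraclone cells. *HOXC10*, which acts in lumbar motor neurons and the hindlimb, had the highest mean of the cluster and differed by −5.92, −6.50 and −5.13 between the lines. *HOXC6* was at 70.1, 61.8 and 72.0 TPM in parental Panc1, at 52.8, 63.5 and 54.8 in Panc1 Holoclone and at 30.5, 30.1 and 35.5 in Panc1 Paraclone cells. *HOXC6* in Panc89 stood at 2.75, 2.12 and 2.59 TPM in parental, at 3.57, 1.16 and 0.875 in Holoclone and at 2.32, 3.66 and 1.52 in Paraclone cells. *HOXC6*, a gene of the thoracic region and mammary gland, differed by −4.31, −4.45 and −3.28, and it shares 16.1% of its exon bases with neighbours on the same strand, among them *HOXC4* and *HOXC9*.

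*HOXC13* was at 49.0, 56.5 and 49.3 TPM in parental Panc1, at 49.6, 52.1 and 53.2 in Panc1 Holoclone and at 27.6, 27.0 and 29.2 in Panc1 Paraclone cells. *HOXC13* in Panc89 stood at 9.22, 9.35 and 9.71 TPM in parental, at 6.58, 5.23 and 4.30 in Holoclone and at 22.7, 14.2 and 18 in Paraclone cells. *HOXC13*, the regulator of hair keratin genes, was the HOXC gene with the most RNA in every Panc89 group, and it differed by −2.33, −3.06 and −0.61 between the lines, least in Paraclone cells. *HOXC9* was at 35.8, 35.5 and 28.6 TPM in parental Panc1, at 44.6, 42.5 and 38.0 in Panc1 Holoclone and at 34.2, 36.2 and 37.3 in Panc1 Paraclone cells. *HOXC9* in Panc89 stood at 1.01, 1.04 and 1.22 TPM in parental, at 0.561, 0.678 and 0.576 in Holoclone and at 2.72, 1.94 and 2.28 in Paraclone cells. *HOXC9*, which sets thoracic motor neuron identity, differed by −4.03, −4.73 and −3.48. *HOXC4* was at 32.5, 33.5 and 30.4 TPM in parental Panc1, at 25.7, 24.3 and 25.4 in Panc1 Holoclone and at 25.1, 30.2 and 29.6 in Panc1 Paraclone cells. *HOXC4* in Panc89 stood at 4.21, 3.34 and 5.08 TPM in parental, at 3.92, 1.89 and 1.62 in Holoclone and at 4.53, 6.73 and 6.63 in Paraclone cells. *HOXC4*, the most anterior member of this cluster, differed by −2.68, −2.97 and −2.09 between the lines and shares 17.5% of its exon bases with other genes of its strand.

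*HOXC11* was at 15.2, 14.9 and 12.8 TPM in parental Panc1, at 12.5, 11.3 and 10.7 in Panc1 Holoclone and at 11.2, 9.02 and 10.0 in Panc1 Paraclone cells. *HOXC11* in Panc89 stood at 1.16, 1.50 and 1.14 TPM in parental, at 0.824, 0.567 and 0.634 in Holoclone and at 3.28, 2.25 and 2.72 in Paraclone cells. *HOXC11*, a posterior gene next to the locus of the antisense RNA *HOTAIR*, differed by −2.76, −2.90 and −1.57 between the lines. *HOXC8* was at 12.1 to 16.1 TPM in Panc1 and at 0.791 to 1.64 in Panc89. The untested *HOXC5* reached 0.943 TPM at most, in a Panc89 Holoclone library, and shares 67.3% of its exon bases with other genes of its strand.

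The HOXD cluster lies on chromosome 2 (chr2:176092721-176190907, plus strand), and 5 of its 9 genes were tested. *HOXD3* and *HOXD4* were lower and *HOXD9*, *HOXD10* and *HOXD11* higher in Panc89 in each of the 3 comparisons. *HOXD3* and *HOXD4* passed the filter through Panc1 libraries alone and *HOXD9* and *HOXD11* through Panc89 libraries alone, so their directions are a description, while *HOXD10* passed it in both lines. *HOXD10* was at 1.97, 1.21 and 1.04 TPM in parental Panc1, at 0, 0 and 0.095 in Panc1 Holoclone and at 0, 0.038 and 0.019 in Panc1 Paraclone cells. *HOXD10* in Panc89 stood at 5.97, 4.84 and 5.90 TPM in parental, at 9.22, 7.81 and 7.75 in Holoclone and at 6.84, 6.19 and 5.39 in Paraclone cells. *HOXD10*, a gene of lumbar motor neurons, was at 4.84 TPM or more in every Panc89 library and at 1.97 TPM or less in every Panc1 library, with log2 fold changes of 1.46 (SE 0.147, adjusted p = 3.1e-07) in parental, 3.16 (SE 0.147, adjusted p = 3.08e-11) in Holoclone and 2.80 (SE 0.147, adjusted p = 1.41e-10) in Paraclone cells by limma. *HOXD11* was at 0.445, 0.628 and 0.699 TPM in parental Panc1, at 0.137, 0.124 and 0.114 in Panc1 Holoclone and at 0, 0 and 0.020 in Panc1 Paraclone cells. *HOXD11* in Panc89 stood at 3.70, 3.51 and 4.37 TPM in parental, at 6.66, 7.22 and 5.70 in Holoclone and at 2.79, 4.59 and 3.40 in Paraclone cells. *HOXD11*, which shapes the forearm, differed by 1.61, 2.74 and 2.17, and no Panc89 library overlapped with a Panc1 library. The pair shares exon bases on the same strand, 18.2% of those of *HOXD10* and 21.4% of those of *HOXD11*, so the division of reads between them is uncertain.

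*HOXD4* was at 3.55, 2.03 and 2.92 TPM in parental Panc1, at 2.30, 2.65 and 1.35 in Panc1 Holoclone and at 0.536, 0.827 and 1.25 in Panc1 Paraclone cells. *HOXD4* in Panc89 stood at 0.141, 0 and 0 TPM in parental, at 0.254, 0.091 and 0.280 in Holoclone and at 0.085, 0.080 and 0.139 in Paraclone cells. *HOXD4*, a hindbrain gene known for its response to retinoic acid, differed by −1.86, −1.34 and −0.75 between the lines, with every Panc1 library above every Panc89 library. *HOXD3* was at 3.03, 1.17 and 2.79 TPM in parental Panc1 and at 0 to 0.181 in Panc89, and its difference between the Paraclone lines, −0.77, was not called without Panc1 Paraclone replicate 3 (limma adjusted p = 0.0508). *HOXD9* was at 0 to 0.372 TPM in Panc1 and at 0.500 to 1.76 in Panc89. Of the untested members, *HOXD8* reached 0.840 TPM and *HOXD12* 0.800 TPM in Panc89 Holoclone cells, *HOXD1* reached 0.827 TPM in parental Panc1 cells, and *HOXD13*, the most posterior member, was listed at 0 in every library.

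**Figure D3:**
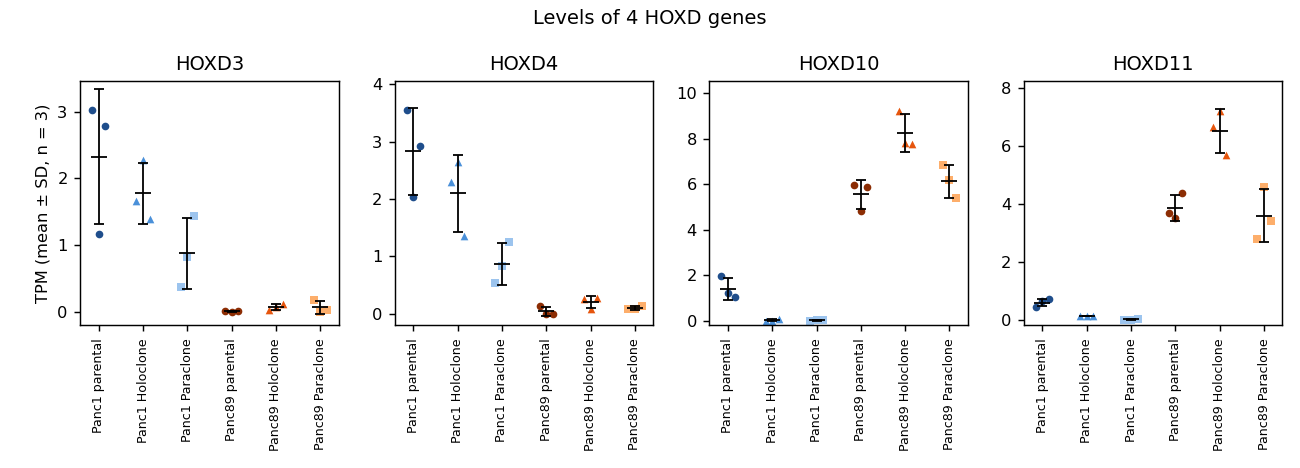
TPM of HOXD3, HOXD4, HOXD10 and HOXD11 in every library by group, with the mean and SD of 3 libraries in black, and each panel has its own linear axis. HOXD3 and HOXD4 have their highest mean in parental Panc1, where libraries overlap with those of Panc1 Holoclone cells. HOXD10, at 4.84 to 9.22 TPM, and HOXD11, at 2.79 to 7.22 TPM, are high in the Panc89 groups.

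Because these 4 genes of 1 cluster differed between the lines in opposite directions, the 250 bases before a RefSeq start of each (GRCh38.p14, plus strand) are shown, with each CG dinucleotide, the site of DNA methylation, in capitals. They lie at chr2:176157057-176157306 for *HOXD3*, chr2:176151300-176151549 for *HOXD4*, chr2:176116528-176116777 for *HOXD10* and chr2:176107030-176107279 for *HOXD11*. No annotated exon overlaps these windows. Those of *HOXD3* and *HOXD4* lie in an intron of *HOXD3*, and those of *HOXD10* and *HOXD11* in an intron of the gene itself.
HOXD3: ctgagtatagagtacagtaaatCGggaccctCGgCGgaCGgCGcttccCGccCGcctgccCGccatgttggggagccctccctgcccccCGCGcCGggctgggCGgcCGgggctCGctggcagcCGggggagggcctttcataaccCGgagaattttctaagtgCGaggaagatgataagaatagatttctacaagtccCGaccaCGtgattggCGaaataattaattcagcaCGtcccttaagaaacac
HOXD4: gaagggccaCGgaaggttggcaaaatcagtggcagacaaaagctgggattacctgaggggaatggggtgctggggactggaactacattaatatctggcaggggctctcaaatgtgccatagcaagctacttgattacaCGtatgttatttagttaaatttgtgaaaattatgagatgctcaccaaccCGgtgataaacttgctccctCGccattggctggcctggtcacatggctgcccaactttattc
HOXD10: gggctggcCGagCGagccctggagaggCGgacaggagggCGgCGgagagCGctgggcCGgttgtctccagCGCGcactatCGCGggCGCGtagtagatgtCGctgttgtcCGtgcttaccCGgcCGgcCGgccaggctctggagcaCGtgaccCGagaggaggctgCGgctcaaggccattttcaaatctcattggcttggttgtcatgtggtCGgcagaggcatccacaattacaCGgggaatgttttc
HOXD11: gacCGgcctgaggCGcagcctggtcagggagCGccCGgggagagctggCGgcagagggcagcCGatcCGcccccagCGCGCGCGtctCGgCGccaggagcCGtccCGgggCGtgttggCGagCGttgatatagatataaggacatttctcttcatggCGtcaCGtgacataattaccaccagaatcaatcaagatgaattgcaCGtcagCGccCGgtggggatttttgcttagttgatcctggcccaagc

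The *HOXD3*, *HOXD10* and *HOXD11* windows hold 21, 23 and 23 CG, and the *HOXD4* window holds 4. Over 35116 RefSeq promoters of the same length the median was 11 CG. RefSeq windows were at hand for 20 of the 39 HOX genes, 27 windows in all, with a median of 19 CG and a range of 0 to 40. The motif TGATTNAT, searched on both strands as a site for HOX with PBX, occurred in the *HOXD11* window and in none of the other three, and in 2.48% of all promoters. TATAAA, searched on both strands, occurred in none of the 4 and in 10.7% of all promoters. DNA methylation and factor binding were not measured here.

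To ask which HOX genes separate the stem-like from the non-stem clone, Holoclone was compared with Paraclone cells in each line. In Panc1, 10 of 30 tested HOX genes were called, where 37.3% of all genes were, 9 of them higher in Holoclone cells (27.4% of all genes) and 1 lower (9.97%). *HOXB9* differed by 1.52 (SE 0.452, adjusted p = 0.015) and *HOXB7* by 1.19 (SE 0.141, adjusted p = 9.72e-06) by limma on the log2 scale, the 2 of 30 with a size over 1, as 11.6% of all genes had. Their libraries, given above, did not overlap: 137 to 148 TPM in Holoclone against 34.2 to 66.1 in Paraclone cells for *HOXB9*, and 123 to 143 against 55.5 to 60.1 for *HOXB7*. The other genes higher in Panc1 Holoclone cells were *HOXA2* (0.87), *HOXC13* (0.86), *HOXC6* (0.81), *HOXD4* (0.72), *HOXA11* (0.60), *HOXB13* (0.58) and *HOXA3* (0.55), and *HOXB8* was lower (−0.60). *HOXA11* passed the filter through 1 parental and 2 Holoclone libraries of Panc1 and no Paraclone library. Its value is therefore a description, though it stays in the counts. By cluster, 3 of 8 HOXA, 3 of 9 HOXB, 2 of 8 HOXC and 1 of 5 HOXD genes tested were higher. The median difference was 0.28 for the tested HOX genes and 0.19 for all genes. Beside this, *COL1A1* was at 7.94, 9.19 and 6.32 TPM in Panc1 Holoclone and at 1.13, 0.923 and 0.969 in Panc1 Paraclone cells, and *CD68* at 69.0, 52.2 and 59.4 and at 151, 129 and 124. The part of these markers in the HOX differences was not tested.

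Median-of-ratios scaling set the median of all genes in this comparison to 0 and left 6 HOX genes higher and 1 lower. The calls of *HOXB9* (1.25, limma adjusted p = 0.0651), *HOXB13* (0.34, 0.0999) and *HOXC6* (0.54, 0.105) then ended. Leaving out 1 library ended the calls of *HOXB9* (without Paraclone replicate 1, 1.26, adjusted p = 0.0635), *HOXB8* (without Holoclone replicate 2 or 3 or Paraclone replicate 2 or 3, adjusted p 0.0507 to 0.0775) and *HOXC6* (without Holoclone replicate 2 or 3 or Paraclone replicate 1 or 2, 0.0546 to 0.0826). Upper quartile scaling ended the calls of the same 3 genes (limma adjusted p 0.0562 to 0.0985), and the absence of a filter that of *HOXC6* (0.0506). A pseudocount of 0.1 TPM ended those of *HOXB8* (limma adjusted p = 0.221), *HOXB13* (0.0559) and *HOXC6* (0.0945), and the limma fit on the 2 groups alone those of *HOXD4* (0.0513) and *HOXB13* (0.0530).

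In Panc89 the clusters went apart. Of 30 tested HOX genes 14 were called, where 35.7% of all genes were, 7 higher in Holoclone cells (22.4% of all genes) and 7 lower (13.3%). In the HOXB cluster 5 of 9 were called, each higher, in the HOXC cluster 6 of 8, each lower, in the HOXD cluster 2 of 5, both higher, and in the HOXA cluster *HOXA3*, which was lower. By more than 1, 7 differed, against 13.2% of all genes. *HOXB9* was higher by 2.02 (SE 0.452, adjusted p = 0.00258) and *HOXB8* by 1.06 (SE 0.182, adjusted p = 0.000315) by limma. *HOXB9* libraries of 10.4 to 23.1 TPM in Holoclone did not overlap with 0.849 to 9.03 in Paraclone cells, of which 1 lay close below. *HOXB7* (0.94), *HOXB3* (0.73), *HOXD11* (0.73), *HOXB4* (0.49) and *HOXD9* (0.49) were also higher. *HOXD9* passed the filter through 1 parental and 2 Holoclone libraries of Panc89 and no Paraclone library. Its value is therefore a description, though it stays in the counts.

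*HOXC13* was lower in Panc89 Holoclone cells (−1.59, SE 0.15, adjusted p = 8.71e-07 in limma), with libraries of 4.30 to 6.58 TPM against 14.2 to 22.7 in Paraclone cells. *HOXC10* (−1.17, SE 0.184, adjusted p = 0.000149), *HOXC11* (−1.16, SE 0.136, adjusted p = 8.93e-06), *HOXC4* (−1.04, SE 0.205, adjusted p = 0.00093) and *HOXC9* (−1.04, SE 0.123, adjusted p = 9.21e-06) also differed by more than 1 on the log2 scale in limma, and *HOXC8* (−0.35) by less. *HOXA3* was lower too (−0.96, SE 0.098, adjusted p = 1.99e-06 in limma). The Holoclone libraries of these 7 genes lay below all Paraclone libraries. The median difference was 0.49 for the tested HOXB and −1.04 for the tested HOXC genes, beside 0.09 for all genes. *CD68* was at 21.7, 25.4 and 18.1 TPM in Holoclone and at 63.0, 33.8 and 60.8 in Paraclone Panc89 cells. *PECAM1* was at 1.25, 0.752 and 0.565 TPM in Holoclone and at 1.92, 6.90 and 4.80 in Paraclone Panc89 cells, and *COL1A1* at 20.9, 9.66 and 15.6 and at 25.8, 23.1 and 25.7. All 3 markers were thus lower in the Holoclone libraries with no overlap, and their part in these differences was not tested.

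A fit on the 2 groups alone left 8 calls and ended those of *HOXB9* (limma adjusted p = 0.0864), *HOXB4* (0.0583), *HOXC4* (0.0599), *HOXC8* (0.0645), *HOXD11* (0.0574) and *HOXD9* (0.118). A pseudocount of 0.1 TPM also ended that of *HOXD9* (limma adjusted p = 0.0590). Leaving out 1 library ended the calls of *HOXB3* (without Holoclone replicate 1, adjusted p = 0.0503), *HOXB4* (without Holoclone replicate 1 or 3 or Paraclone replicate 1 or 3, 0.0519 to 0.114), *HOXC8* (without Holoclone replicate 2 or Paraclone replicate 2, 0.0666 and 0.0507) and *HOXD9* (without Holoclone replicate 1 or 3 or Paraclone replicate 3, 0.0721 to 0.0853).

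**Figure D4:**
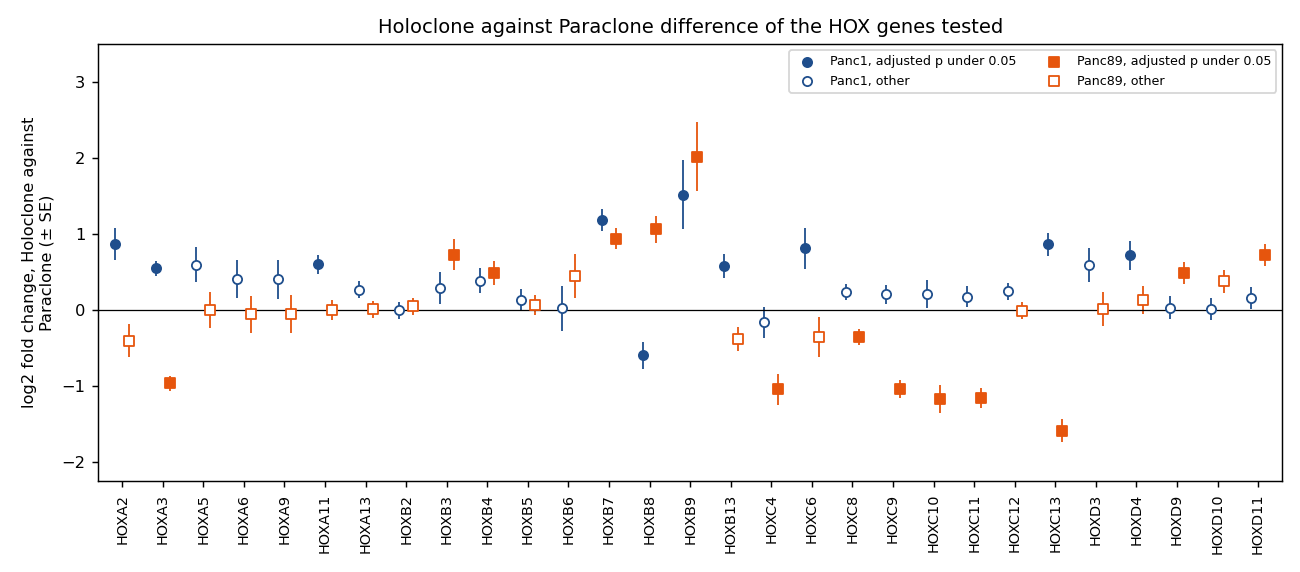
Log2 fold change of Holoclone against Paraclone cells with its SE for the tested HOX genes, in Panc1 (blue circles) and Panc89 (orange squares), where filled points have an adjusted p under 0.05 in limma. HOXB7 and HOXB9 are filled and above 0 in both lines, and HOXC13 is at 0.86 in Panc1 and at −1.59 in Panc89.

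Between these comparisons, which share no library, 5 genes were called in both, 5 of the 10 called in Panc1 and 5 of the 14 called in Panc89. Over all genes 14.5% were called in both, 39% of those called in Panc1 and 40.7% of those called in Panc89. *HOXB7* and *HOXB9* were higher in Holoclone cells of both lines. *HOXA3* and *HOXC13* were higher in Panc1 and lower in Panc89 Holoclone cells, and *HOXB8* was lower in Panc1 and higher in Panc89 Holoclone cells. Whether the Holoclone minus Paraclone value itself differed between Panc89 and Panc1 was tested in limma, and this difference was called for 13 of 30 HOX genes, where it was for 35.1% of all genes. In 2 it was positive, that is, larger in Panc89 (14.8% of all genes), and in 11 negative (20.4%), and in 8 it was over 1 in size (20.5%). Under upper quartile and median-of-ratios scaling 1 was positive and 11 were negative, since the call of *HOXD11* ended (limma adjusted p = 0.0553 and 0.0582). With a pseudocount of 0.1 TPM the value of *HOXD11* was −0.22 (limma adjusted p = 0.661). *HOXA11*, among the 11, was listed at 0 in every Panc89 library, so its value is its Panc1 change alone, given above as a description. Of the 8 tested HOXC genes 7 had a negative difference, of which that of *HOXC13* was −2.45 (SE 0.212, adjusted p = 4.16e-07) in limma. *HOXB8* had a difference of 1.66 (SE 0.258, adjusted p = 0.000141) and *HOXA3* one of −1.51 (SE 0.139, adjusted p = 7.72e-07) in limma. For *HOXB7* (−0.25, SE 0.2, adjusted p = 0.365) and *HOXB9* (0.50, SE 0.64, adjusted p = 0.592) the difference was not called in limma. This does not show that their changes were equal in the lines. The SE of *HOXB9* was wide. *HOXB7* was at 1.18 to 1.89 TPM in Panc89 Holoclone and at 0.111 to 0.448 in Panc89 Paraclone cells, where this scale understates a change. The median difference was −0.46 over the tested HOX genes and −0.11 over all genes.

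To place each clone against the population it came from, clones were compared with parental cells. The Holoclone and the Paraclone comparison of a line share the parental libraries. In Panc1 Holoclone cells 6 of 30 tested HOX genes were called, where 10.9% of all genes were, 2 higher (5.87% of all genes) and 4 lower (5.06%), of which 2 by more than 1 (3.21%). In Panc1 Paraclone cells 16 were called, against 28.6% of all genes, 1 higher (7.31%) and 15 lower (21.3%), of which 7 by more than 1 (7.95%). There were 3 higher and 12 lower under median-of-ratios scaling, which moved the median of all genes from −0.17 to 0. *HOXA13* and *HOXC12*, both among the lower genes of each clone, passed the filter through the 3 parental Panc1 libraries alone and so had to be lower in the clones, and their values are given as a description with no test. Beside these counts *COL1A1* was at 11.9, 14.3 and 12.6 TPM in parental Panc1 and *CD68* at 96.8, 88.5 and 88.0, with the clone values given above, and the part of these markers was not tested. *HOXC12*, a posterior HOXC gene named here after its values were seen, had the largest difference of the tested HOX genes in both. It was at 48.3, 50.8 and 41.5 TPM in parental Panc1, at 0.322, 0.120 and 0.332 in its Holoclone and at 0.069, 0.049 and 0.048 in its Paraclone cells, and at 0 to 0.024 TPM in Panc89 libraries. Its log2 fold change was −5.25 in Holoclone and −5.50 in Paraclone cells. *HOXC12* (chr12:53954903-53958956) shares no exon base with another annotated gene. Its neighbours *HOXC11* and *HOXC13*, given above, stayed at 9.02 TPM or more in every Panc1 library. In Holoclone cells neither was called (−0.29 and 0.00), and in Paraclone cells both were (−0.47 and −0.86).

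**Figure D5:**
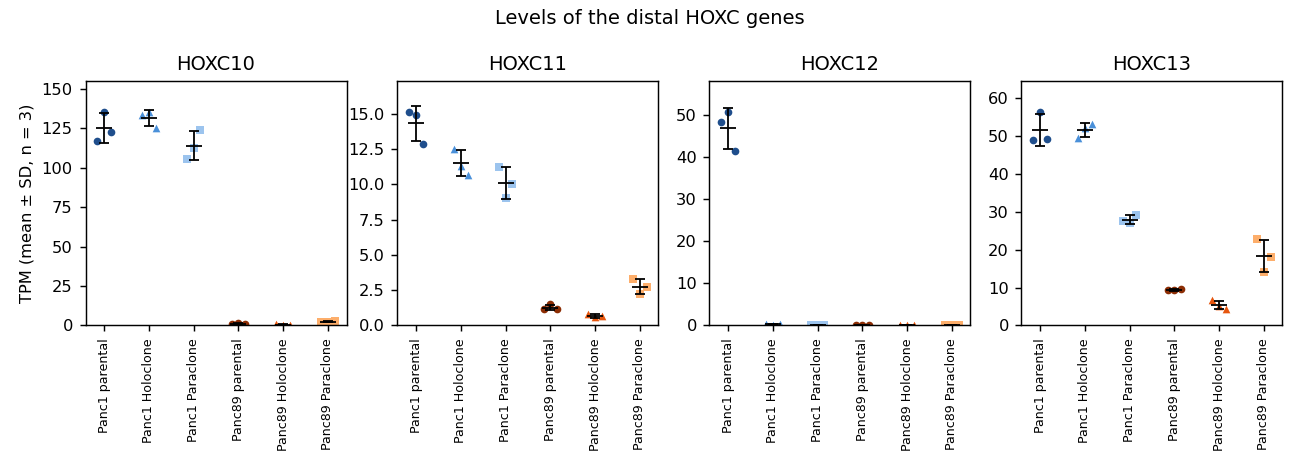
TPM of HOXC10, HOXC11, HOXC12 and HOXC13 in every library by group, with the mean and SD of 3 libraries in black, and each panel has its own linear axis from 0. HOXC12 is at 41.5 to 50.8 TPM in parental Panc1 and at 0.332 TPM or less in all other groups, whereas the 3 other genes are high in all Panc1 groups.

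Besides *HOXC12*, in Panc1 Holoclone cells *HOXD10* (−1.20), *HOXD11* (−0.50) and, as a description, *HOXA13* (−0.84) were lower than in parental cells, and *HOXA3* (0.89) and *HOXB7* (0.64) higher. The values of the same genes in Panc1 Paraclone cells were −1.22, −0.66, −1.10, 0.34 and −0.55. Panc1 Paraclone cells were also lower in *HOXA5* (−1.29), *HOXC6* (−1.06), *HOXD4* (−1.03), *HOXA6* (−1.02), *HOXC13*, *HOXD3* (−0.82), *HOXA2* (−0.75), *HOXA11* (−0.56), *HOXC11* and *HOXC8* (−0.31). The value of *HOXA11* is a description, since it passed the filter through parental and Holoclone Panc1 libraries and no Paraclone library. By cluster, 5 of 8 tested HOXA, 1 of 9 HOXB, 5 of 8 HOXC and 4 of 5 HOXD genes were lower. A pseudocount of 0.1 TPM ended the calls of *HOXB7* in both clones (limma adjusted p = 0.212 and 0.187) and those of *HOXC11* (0.0515) and *HOXC8* (0.106) in Paraclone cells, and median-of-ratios scaling those of *HOXB7* (0.0922), *HOXC11* (0.213) and *HOXC8* (0.567) in Paraclone cells, as did upper quartile scaling (0.0612, 0.132 and 0.392). The limma fit on the 2 groups alone ended the Paraclone calls of *HOXA6* (0.0529), *HOXA3* (0.0681), *HOXD3* (0.131), *HOXC11* (0.0526) and *HOXC8* (0.0575). Leaving out 1 parental or clone library ended the call of *HOXD11* in Holoclone cells (any library but parental replicate 1, limma adjusted p 0.0770 to 0.118) and of *HOXC8* in Paraclone cells (any library, 0.0612 to 0.106).

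Leaving out 1 library also ended other Panc1 Paraclone calls, *HOXA2* without Paraclone replicate 2 or 3 or parental replicate 1 or 2 (limma adjusted p 0.0532 to 0.0642), *HOXA3* without Paraclone replicate 1 or 2 or parental replicate 1 (0.0506 to 0.0840), *HOXC11* without Paraclone replicate 2 or parental replicate 1 or 2 (0.0514 to 0.0871) and *HOXD3* without Paraclone replicate 1 or parental replicate 1 or 3 (0.0618 to 0.0746).

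In Panc89 Holoclone cells 11 of 30 tested HOX genes differed from parental cells, where 24.7% of all genes did, 7 higher (16.1% of all genes) and 4 lower (8.61%). *HOXB9* (2.29, SE 0.452, adjusted p = 0.00149) and *HOXB8* (1.11, SE 0.182, adjusted p = 0.00034) were the 2 that differed by more than 1 in limma, as 8.51% of all genes did. *HOXB7* (0.76), *HOXD11* (0.63), *HOXB3* (0.60), *HOXB4* (0.53) and *HOXD10* (0.50) were higher, and *HOXC13* (−0.73), *HOXC4* (−0.63), *HOXC11* (−0.44) and *HOXC9* (−0.38) lower. In Panc89 Paraclone cells 5 differed, against 19.4% of all genes, and all 5 were higher, where 9.37% of all genes were higher and 10.0% lower. No difference was over 1 in size, as 7.36% of all genes had. The 5 were *HOXA3* (0.91, SE 0.098, adjusted p = 1.1e-05), *HOXC13* (0.86), *HOXC11* (0.72), *HOXC10* (0.66) and *HOXC9* (0.66) in limma. Parental levels of *HOXC9*, *HOXC11* and *HOXC13* thus lay between those of the clones. The endothelial marker sum, given above, was lower in both Panc89 clones than in parental cells, and its part in these differences was not tested. Without parental replicate 1 or 2 the Holoclone count was 6, and without parental replicate 3 or Holoclone replicate 3 it was 7. The Holoclone call ended for *HOXC9* without any 1 library (limma adjusted p 0.0548 to 0.115). It ended for *HOXB3* without any but Holoclone replicate 3 (0.0907 to 0.147) and for *HOXB4* without any but Holoclone replicate 2 (0.0541 to 0.0979). It ended for *HOXC4* without Holoclone replicate 2 or 3 or parental replicate 1 or 3 (0.0861 to 0.159), for *HOXC11* without Holoclone replicate 2 or 3 or parental replicate 1 or 2 (0.0529 to 0.111) and for *HOXD10* without Holoclone replicate 1 or parental replicate 2 (0.0637 and 0.0909). In Paraclone cells it ended for *HOXC10* without Paraclone replicate 3 or parental replicate 1 or 3 (0.0681 to 0.0926). *HOXB7*, *HOXB8*, *HOXB9*, *HOXC13* and *HOXD11* kept their Holoclone call without any 1 library.

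Genes known to work with or beside the clusters were counted from lists, and each list is described by its counts. Of 9 TALE homeodomain cofactors, the PBX, MEIS and PKNOX proteins, 8 were tested, and 3 were higher and 3 lower in parental Panc89 than in parental Panc1 cells, beside 27.5% and 38.5% of all genes. *PBX3*, a PBX cofactor, was at 23.7, 24.7 and 22.5 TPM in parental Panc1 and at 2.47, 1.41 and 1.13 in parental Panc89, with no overlap. It was lower in Panc89, with −3.24 (SE 0.279, adjusted p = 5.32e-08) between parental, −4.12 between Holoclone and −3.95 between Paraclone lines in limma. *MEIS1* was higher (1.28) and *PBX4* lower (−1.42) in parental Panc89. Between Holoclone and Paraclone cells 3 of 8 were higher in Panc1 Holoclone (27.4% of all genes), *MEIS1* (1.00) among them, and 2 of 8 lower in Panc89 Holoclone cells (13.3%), *PBX4* (−1.67) and *MEIS3* (−1.21). *PBX4* was higher in Panc89 Paraclone than in parental Panc89 cells (1.44).

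Of 18 long noncoding RNAs of the clusters, 13 were tested. In parental Panc89 1 was higher and 11 were lower, in Holoclone 2 and 11, and in Paraclone cells 2 and 10, beside 38.5%, 36.4% and 30.4% of all genes lower. An RNA that passed the filter through 1 line alone had to differ here too. *HOTAIRM1*, of the HOXA cluster, was at 122, 87.3 and 92.0 TPM in parental Panc1 and was listed at 0 in every parental Panc89 library. *HOXA10-AS*, the 1 called higher in parental Panc89, was at 0.069, 0.037 and 0.074 TPM in parental Panc1 and at 9.05, 7.30 and 8.76 in parental Panc89 (3.14, SE 0.266, adjusted p = 4.35e-08 in limma). *HOXA-AS2*, which overlaps exons of *HOXA3*, was also higher in Panc89 between the Paraclone lines (1.17, SE 0.3, adjusted p = 0.0032 in limma). *HOXB-AS3* (−4.81), *HOTAIR* (−4.39), *HOXB-AS1* (−3.50), *HAGLR* (−3.05), *HOXC-AS3* (−2.89), *HOXC-AS1* (−2.75), *HOXC-AS2* (−2.51), *HOXC13-AS* (−1.35) and *HOXA11-AS* (−1.33) were lower in parental Panc89, and *HOXD-AS2* was listed at 0 there. In Panc1 5 of 13 were higher in Holoclone than in Paraclone cells (27.4% of all genes), among them *HOXB-AS3* (1.95), *HOXC13-AS* (1.44) and *HAGLR* (1.36). In Panc89 1 was higher (22.4%) and 2 were lower (13.3%) in Holoclone cells, with *HOTAIR* at −1.06. *HOTAIR*, which lies between *HOXC11* and *HOXC12*, was at 57.8, 68.1 and 38.2 TPM in parental Panc1, at 21.1, 20.3 and 19.1 in Panc1 Holoclone and at 14.5, 16.5 and 24.1 in Panc1 Paraclone cells. It was thus lower in both clones, with log2 fold changes of −1.36 (SE 0.255, adjusted p = 0.00235) and −1.52 (SE 0.255, adjusted p = 0.000429) in limma, but not near 0 as *HOXC12* was. In Panc1 Paraclone cells 8 of 13 were lower than in parental cells (21.3% of all genes), among them *HAGLR* (−1.80) and *HOXB-AS3* (−1.28).

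All 25 Polycomb and Trithorax genes were tested, and 7 were higher and 9 lower in parental Panc89, beside 27.5% and 38.5% of all genes. *PHC2* (−1.78), *CBX6* (−1.56), *BMI1* (−1.26), *PHC1* (−1.23) and *KMT2A* (−1.08), of which the first 4 are Polycomb and the last is a Trithorax gene, were lower, and *CBX2* (1.82) and *JARID2* (1.11), both Polycomb genes, higher. In Panc1 Holoclone cells 11 of 25 were called in limma against Paraclone cells, each higher and by less than 1, where 27.4% of all genes were higher and the median over all genes was 0.19. In Panc89 Holoclone cells 5 were higher (22.4% of all genes) and 2 lower (13.3%), with *CBX6* at 59.9, 49.2 and 51.1 TPM against 3.91, 5.13 and 3.51 in Paraclone cells (3.40, SE 0.152, adjusted p = 2.61e-10 in limma). *PHC1* (1.42) was also higher there. *CBX6*, a Polycomb chromobox protein, lay between the clones in parental Panc89 cells at 18.2, 13.5 and 15.5 TPM. *EZH2*, the Polycomb methyltransferase, was at 9.68 to 48.0 TPM over all libraries.

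Of 18 CDX and retinoic acid genes 12 were tested, and 6 were higher and 3 lower in parental Panc89, beside 27.5% and 38.5% of all genes. *RDH10* (5.15) and *ALDH1A1* (1.98), enzymes on the path to retinoic acid, the retinoid receptor *RXRA* (1.75) and *CYP26A1* (1.28), which breaks retinoic acid down, were higher, and *CRABP2* (−2.87), which carries it, and *CYP26B1* (−1.51) lower. *ALDH1A1* reached 1 TPM in the parental Panc89 libraries alone, so it had to be higher there and its value is a description. *CDX2*, a homeobox gene of the gut, was at 7.66, 3.24 and 5.42 TPM in Panc1 Holoclone and at 0.060, 0.093 and 0.099 in Panc1 Paraclone cells (2.51, SE 0.26, adjusted p = 2.29e-06 in limma). In Panc1 5 of 12 were higher (27.4% of all genes) and 2 lower (9.97%) in Holoclone cells, with *CYP26B1* (2.15), *CYP26A1* (1.41) and *CYP26C1* (1.16) among the higher and *ALDH1A3* (−1.15) among the lower genes. *CYP26C1* reached 1 TPM in parental and Holoclone Panc1 libraries alone, so its value is a description. In Panc89 3 were higher (22.4%) and 3 lower (13.3%), with *CRABP2* (2.53) and *RXRA* (2.15) higher and *RDH10* (−1.97) lower. *CYP26A1* was lower than in parental cells in Panc89 Holoclone (−1.91) and Paraclone cells (−1.87), and *CDX2* was lower in Panc1 Paraclone than in parental Panc1 cells (−1.87).

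Of 15 genes that flank the clusters 10 were tested, and 2 were higher and 3 lower in parental Panc89, beside 27.5% and 38.5% of all genes, of which *CALCOCO2* (−1.29) and *SKAP1* (−1.25), both beside the HOXB cluster, by more than 1. *SKAP1* reached 1 TPM in parental and Holoclone Panc1 libraries alone, so its value is a description. Between the Paraclone lines 6 of the tested flanking genes were higher and 2 lower, beside 30.2% and 30.4% of all genes. The median difference of the tested flanking genes was −0.34 between the parental and 0.45 between the Paraclone lines. In Panc1 3 were called in limma between Holoclone and Paraclone cells, each higher and by less than 1, where 27.4% of all genes were higher. In Panc89 Holoclone cells 1 was higher (22.4% of all genes) and 2 were lower (13.3%), *SKAP2* (−1.73), beside the HOXA cluster, and *CALCOCO1* (−1.37), beside the HOXC cluster. *SKAP2* was at 37.4, 34.1 and 21.0 TPM in Holoclone and at 122, 78.5 and 110.0 in Paraclone Panc89 cells, with no overlap.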

How the data were processed

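RNA of 18 libraries (3 passages of each of 6 groups of Panc1 and Panc89 cells) had been sequenced paired-end from a stranded mRNA kit on total RNA. The authors quantified transcripts with kallisto 0.46.1 against the Ensembl GRCh38 transcriptome and summarised them to genes as scaled TPM, and the deposited table holds log2 values, log2(TPM + 1), checked by undoing the log, which gave sums of 985339 to 988066 TPM a library. The strand setting of the quantification is not given in the sources used here. Samples were grouped by their labels, and each column of the table was matched to its sample by name.

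Group means of all 18 libraries were fitted in limma 3.58.1 (R 4.3.3) with an intensity trend, for the 16093 genes at 1 TPM or more in at least 3 libraries. Tests were two-sided with Benjamini-Hochberg adjusted p under 0.05, and every adjusted p printed here is limma's. The fit was tested on simulated data. The members and lists were chosen with earlier results of these data known. Values of every library are given for the 3 genes of each cluster with the highest mean TPM and for HOX genes called with a size over 1 on the log2 scale between Holoclone and Paraclone cells, and list members are named where so called. Some genes that these rules would name are not reported here, in the text or the figures, and remain in the counts and sums. Alternatives changed the scaling, the pseudocount (0.1 TPM), the filter (5 TPM or none), the fitted groups, the replicate block and the libraries. TPM keep no read counts, so no counting interval is given. Positions and exon overlaps are from GENCODE 44 and promoters from RefSeq. Summaries used Python 3.11.15 and pandas 2.3.3.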

Additional observations from a re-analysis of the deposited data

Results flagged for a closer look

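For 13 HOX genes the Holoclone minus Paraclone log2 value differed between Panc89 and Panc1 in limma, and each is given as Panc89 minus Panc1. Opposite directions that were called in both lines were found for *HOXC13* (−2.45, adjusted p = 4.16e-07), *HOXA3* (−1.51, adjusted p = 7.72e-07) and *HOXB8* (1.66, adjusted p = 0.000141), whose changes are given above. A gene called in Panc1 alone was *HOXA2* (−1.28, adjusted p = 0.00388, from 0.87 in Panc1 and −0.40 in Panc89), as were *HOXB13* (−0.96, adjusted p = 0.00312, from 0.58 in Panc1 and −0.38 in Panc89), *HOXC6* (−1.17, adjusted p = 0.0255, from 0.81 in Panc1 and −0.36 in Panc89) and *HOXA11* (−0.60, adjusted p = 0.0161, from 0.60 in Panc1), which passed the filter through Panc1 alone and was listed at 0 in every Panc89 library, so that its value restates the Panc1 change. That change is a description, since *HOXA11* passed the filter through no Panc1 Paraclone library. A gene called in Panc89 alone was *HOXC10* (−1.37, adjusted p = 0.000747, from 0.21 in Panc1 and −1.17 in Panc89), as were *HOXC11* (−1.33, adjusted p = 7.17e-05, from 0.17 in Panc1 and −1.16 in Panc89) and *HOXC9* (−1.25, adjusted p = 5.05e-05, from 0.21 in Panc1 and −1.04 in Panc89). The remaining genes called in Panc89 alone were *HOXC4* (−0.88, adjusted p = 0.0269, from −0.16 in Panc1 and −1.04 in Panc89), *HOXC8* (−0.59, adjusted p = 0.00646, from 0.23 in Panc1 and −0.35 in Panc89) and *HOXD11* (0.57, adjusted p = 0.0413, from 0.16 in Panc1 and 0.73 in Panc89).

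The calls of *HOXC4*, *HOXC6* and *HOXD11* among these ended without 1 library. For *HOXC4* this was Panc1 Holoclone replicate 1 or 3, Panc1 Paraclone replicate 1, Panc89 Holoclone replicate 2 or 3 or Panc89 Paraclone replicate 2 or 3 (limma adjusted p 0.0515 to 0.0706). For *HOXC6* it was replicate 2 of any of the 4 clone groups or Panc89 Holoclone replicate 3 (0.0544 to 0.0679). For *HOXD11* it was any Panc1 Holoclone or Paraclone replicate, Panc89 Holoclone replicate 1 or 2 or Panc89 Paraclone replicate 1 or 3 (0.0590 to 0.107). The *HOXD11* call also ended under upper quartile and median-of-ratios scaling (limma adjusted p = 0.0553 and 0.0582), and its value was −0.22 with a pseudocount of 0.1 TPM (0.661).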

How the results depend on the processing

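The count of HOX genes called in limma was within 1.5 times its value in the report under each alternative scaling, pseudocount and filter run, except where given here, and the counts between the lines stayed in that range under all of them. Requiring in addition a size over 1 on the log2 scale left 2 genes in Panc1 Holoclone against Paraclone, 7 in Panc89 Holoclone against Paraclone, 2 in Panc1 Holoclone and 7 in Panc1 Paraclone against parental, 2 in Panc89 Holoclone and 0 in Panc89 Paraclone against parental, and 8 in the difference between the lines. A filter of 5 TPM left 10 in Panc1 Paraclone against parental, where fewer genes are tested, and a fit on the groups compared alone left 8 in Panc89 Holoclone against Paraclone, where fewer libraries set the spread. The sign of the difference between the lines turned for *HOXD11*, from 0.57 to −0.22 with a pseudocount of 0.1 TPM (adjusted p = 0.661), and the cause was not tested.

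Replicate numbers did not pair the samples. Over 18 pairs of same-numbered samples the correlation of deviations from group means ran from −0.318 to 0.19, and 3 were over 0.1. With the replicate block within each line 7 HOX genes were called in Panc89 Holoclone against parental, in place of 11. Leaving out 1 library gave 29 to 30 between the parental, 27 to 30 between the Holoclone and 26 to 27 between the Paraclone lines, 8 to 12 in Panc1 and 12 to 13 in Panc89 Holoclone against Paraclone, 5 to 6 in Panc1 Holoclone, 11 to 15 in Panc1 Paraclone, 6 to 9 in Panc89 Holoclone and 4 to 5 in Panc89 Paraclone against parental, and 11 to 13 in the difference. Of 162 called gene results 8 lost their call under each scaling, 6 with no filter, 20 in the fit on the groups compared and 11 with the smaller pseudocount, besides the 1 that turned. TPM keep no depth, so its effect on genes near 1 TPM is unknown.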
